A study of Mus musculus with 3 samples.

Results

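The genes described here are 10 members of the lysosomal protease system: the cathepsins Ctsb, Ctsc, Ctsd, Ctsh, Ctsk, Ctsl, Ctss and Ctsz, the legumain gene Lgmn and the cystatin gene Cst3. They were listed by name, and 10 of 10 were found among the 32285 genes of the deposited matrices. The study sequenced RNA of single CD45+ cells of the mouse aorta, captured in droplets, in 3 libraries that all came from ApoE-/- (C57BL/6J) mice, an atherosclerosis-prone line that lacks apolipoprotein E. One library came from untreated control mice, a second, labelled HHcy, from mice given homocysteine (Hcy) at 1.8 g/L in drinking water for 4 weeks, and the third, labelled WD, from mice fed a western diet for 4 weeks. The age and number of mice behind each library are not stated in the labels, so every difference between libraries is a difference between 2 libraries with no replicate check. The cells were live, nucleated and CD45+ by sorting, from whole aortas including the adventitia, freed of fat and digested with enzymes.

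A level below is the number of a gene's unique molecular identifiers (UMIs, one per captured transcript) per 1000000 UMIs (CPM), summed over the cells of one kind in one library. A gene was called different when its CPM ratio reached 1.5-fold, among genes with at least 50 UMIs over both sides of the comparison. Intervals are 95% intervals of counting error only. Levels are compared between cells or libraries for one gene at a time, not between genes.

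The libraries held 7512, 9753 and 8557 barcodes in control, HHcy and WD, with 66789257, 105180370 and 93164076 UMIs, and 5392, 6433 and 5341 cells were used. The macrophage and monocyte class held 2072, 1313 and 2800 of these cells, the conventional dendritic class 493, 299 and 460, and the B cell class 2252, 3768 and 1277. Between 11 and 14 cell barcodes were shared by each pair of libraries. Ptprc, which encodes CD45, had a UMI in 90.9% to 98.2% of B, T, macrophage, dendritic and neutrophil cells and in 16.5% to 20.6% of the fibroblast-like cells, a small group that the sort for CD45 should have left out.

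The library labelled HHcy stood apart in the gene that the line lacks. Apoe was at 16.3 CPM in control, 19.3 CPM in WD and 374 CPM in the library labelled HHcy. The labels give the same line for all 3 libraries and do not say which part of the gene is deleted. Tags from it do not by themselves check the genotype, and the source of the higher level in HHcy was not tested. In that library 191 macrophages and monocytes had 10 or more Apoe UMIs, against 1 in control and 2 in WD, and 107 of the 191 were resident-like macrophages. Compared with the other 1122 macrophages and monocytes of the library, they differed by less than 1.5-fold in 9 of the 10 members, all but Ctsk with its 37 UMIs. The log2 ratios were 0.42 for Ctsd, 0.41 for Cst3, -0.24 for Ctss and -0.45 for Ctsz. Both groups pool all subsets, and 238 of the 1122 were resident-like, so these ratios are not adjusted for subset mix. Results from this library are given for all its cells and, where stated, without these 191. Leaving them out did not remove the Apoe difference in macrophages and monocytes, at 78.6 CPM in HHcy against 27.9 CPM in control. Apoe also stayed past 1.5-fold in resident-like macrophages (log2 1.51) and in classical (1.39) and non-classical monocytes (1.67). In foamy-like macrophages it was at 34.2 CPM against 35.3 CPM. The 191 are all macrophages and monocytes, so the step leaves HHcy values of other classes unchanged.

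Cathepsins are proteases that break down proteins in the acid interior of endosomes and lysosomes. Ctsb, Ctsc, Ctsh, Ctsk, Ctsl, Ctss and Ctsz encode papain-like cysteine proteases, Ctsd an aspartic protease, Lgmn an asparaginyl endopeptidase that also processes other cathepsins, and Cst3 the secreted inhibitor cystatin C, which blocks papain-like cathepsins. In macrophages these enzymes digest engulfed cells and lipoproteins, in dendritic and B cells cathepsin S trims the invariant chain from MHC class II, and in plaques several of them can be released and cleave elastin and collagen.

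The members lie on 7 chromosomes (GRCm38). Ctsb (ENSMUSG00000021939), both an endopeptidase and a dipeptidyl carboxypeptidase, lies at chr14:63122462-63145923, and Ctsl (ENSMUSG00000021477), an endopeptidase, at chr13:64359337-64370890. Ctsk (ENSMUSG00000028111), a collagenase of bone-resorbing osteoclasts, and Ctss (ENSMUSG00000038642), an elastase that stays active at neutral pH, are neighbours at chr3:95499256-95509362 and chr3:95526786-95556403, both on the plus strand, 17.4 kb apart with no gene annotated between them. Ctsc (ENSMUSG00000030560), the dipeptidyl peptidase that activates granule serine proteases, lies at chr7:88278085-88310888, and Ctsd (ENSMUSG00000007891) on the same chromosome at chr7:142375911-142388038. Ctsh (ENSMUSG00000032359), an aminopeptidase, lies at chr9:90054152-90076089, and Ctsz (ENSMUSG00000016256), a carboxypeptidase, at chr2:174427493-174439039. Lgmn (ENSMUSG00000021190) lies at chr12:102394084-102439813 and Cst3 (ENSMUSG00000027447) at chr2:148871722-148875692.

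Promoter windows were searched for 4 motifs on both strands. The windows are RefSeq's (GRCm38.p6), 250 bases before to 50 after a gene's start, and were available for 8 of the 10 members, all but Ctsb and Ctsh. The windows of Ctsc, Ctsz, Lgmn and Cst3 were searched but are not printed. Printed here are the 4 windows of Ctsd, Ctsl, Ctss and Ctsk, a selection from the members in the foamy-to-resident contrast below. Their positions are chr7:142387778-142388077 on the minus strand for Ctsd, chr13:64370471-64370770 on the minus strand for Ctsl, chr3:95526536-95526835 on the plus strand for Ctss and chr3:95498960-95499259 on the plus strand for Ctsk. The RefSeq starts used for Ctsd and Ctsl lie inside the gene spans given above. Capitals mark CACGTG, the E-box core bound by the MiT/TFE family of lysosomal gene regulators among many other factors, in Ctsd and Ctsl, and GAGGAAGT, a motif of the myeloid factor PU.1, read on the opposite strand as ACTTCCTC, in Ctss.
Ctsd: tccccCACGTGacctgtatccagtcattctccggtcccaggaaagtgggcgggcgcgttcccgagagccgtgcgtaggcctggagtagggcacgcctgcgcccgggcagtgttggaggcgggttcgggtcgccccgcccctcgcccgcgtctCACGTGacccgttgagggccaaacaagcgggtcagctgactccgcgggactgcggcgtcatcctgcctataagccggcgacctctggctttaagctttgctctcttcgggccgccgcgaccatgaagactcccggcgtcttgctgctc
Ctsl: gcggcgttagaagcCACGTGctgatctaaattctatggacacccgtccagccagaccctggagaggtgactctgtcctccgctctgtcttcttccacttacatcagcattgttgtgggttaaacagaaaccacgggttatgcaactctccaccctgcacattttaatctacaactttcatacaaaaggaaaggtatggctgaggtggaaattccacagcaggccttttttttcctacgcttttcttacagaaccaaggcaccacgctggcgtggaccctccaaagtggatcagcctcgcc
Ctss: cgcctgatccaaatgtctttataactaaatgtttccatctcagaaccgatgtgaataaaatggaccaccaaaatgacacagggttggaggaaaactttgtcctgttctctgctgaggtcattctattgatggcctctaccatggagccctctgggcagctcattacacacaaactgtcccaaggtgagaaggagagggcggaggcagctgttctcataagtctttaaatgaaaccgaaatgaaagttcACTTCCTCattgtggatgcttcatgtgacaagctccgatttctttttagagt
Ctsk: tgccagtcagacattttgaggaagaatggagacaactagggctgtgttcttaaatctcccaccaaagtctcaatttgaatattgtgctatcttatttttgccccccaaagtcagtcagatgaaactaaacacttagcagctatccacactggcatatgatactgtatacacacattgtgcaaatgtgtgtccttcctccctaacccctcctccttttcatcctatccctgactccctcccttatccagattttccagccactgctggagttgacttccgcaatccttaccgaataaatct

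Among the members' 9 windows (Lgmn has a pair of them), 3 held CACGTG, those of Ctsd and Ctsl and one of Lgmn, and the Ctsd window held it at 2 places. CACGTG was found in 7.15% of all 32851 windows. GAGGAAGT was found in 2 of the 9, those of Ctss and Ctsc, and in 3.20% of all windows. The longer palindrome of lysosomal genes, CACGTG with GT before it and AC after it, was in 0 of the 9 and in 0.326% of all windows, and the AP-1-type TGANTCA was in 0 of the 9 and 7.81% of all windows. A match describes these letters only, and none was tested for binding.

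Cells were sorted into classes and subsets by clustering without the members and without other lysosomal or MHC class II genes, and subsets were named from marker lists. The subsets described are resident-like macrophages (led by Cd163, Lyve1 and Folr2), foamy-like macrophages (led by Spp1, Gpnmb and Fabp5), classical and non-classical monocyte-like cells (led by Vcan and Ly6c2, and by Ace and Treml4), and a macrophage cluster led by Cd72 and Ms4a7 with Mmp12 and Trem2 that stayed unnamed. Dendritic subsets were Cd209a cells, Xcr1 Clec9a cells and mature cells (led by Fscn1 and Ccr7), and B subsets were naive follicular-like and B1-like cells. Levels are ordered over subsets and clusters with at least 30 cells in every library.

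Ctsb, Ctss, Ctsz, Ctsd and Lgmn were at their highest in foamy-like macrophages, named for the lipid-laden cells of plaques. Ctsb was at 4742, 4282 and 4858 CPM there in control, HHcy and WD, ahead of resident-like macrophages at 2979, 3072 and 3665 CPM, the Cd72 and Ms4a7 cluster at 3489, 2985 and 2741 CPM and non-classical monocytes at 2116, 1965 and 2612 CPM. Classical monocytes were at 1233, 1083 and 1370 CPM, Cd209a dendritic cells at 473, 464 and 815 CPM and naive follicular B cells at 104, 85.2 and 134 CPM. The foamy-like range over the 3 libraries lay above every other subset's, while the ranges of the resident-like and the Cd72 and Ms4a7 cells overlapped.

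Ctss and Ctsz followed a like order in macrophages but reached further into other cells. Ctss was at 3780, 3195 and 2895 CPM in foamy-like cells, 2664, 2158 and 2051 CPM in the Cd72 and Ms4a7 cluster, 1797, 1875 and 1543 CPM in classical monocytes and 1269, 1196 and 1308 CPM in Cd209a dendritic cells. Resident-like macrophages, at 999, 906 and 1144 CPM, were below both monocyte subsets in every library. Naive follicular B cells held Ctss at 346, 386 and 382 CPM and B1 cells at 276, 288 and 309 CPM, with ranges that did not overlap, whereas fibroblast-like cells had 21.4 to 33.6 CPM. Ctsz was at 1548, 1786 and 1769 CPM in foamy-like cells and at 1085, 1152 and 1068 CPM in the Cd72 and Ms4a7 cluster, and it was lowest among macrophage, monocyte, dendritic and B subsets in naive follicular cells, at 186, 202 and 202 CPM.

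The aspartic protease gene Ctsd fell off in steps over the macrophage clusters. It was at 2846, 1912 and 2270 CPM in foamy-like cells, at 1622, 1582 and 1834 CPM in an unnamed macrophage cluster led by Prg4 and Saa3, at 1296, 715 and 929 CPM in the Cd72 and Ms4a7 cluster and at 521, 658 and 896 CPM in resident-like cells. These ranges were separate down to the Cd72 and Ms4a7 cluster, and that cluster and the resident-like cells overlapped. Neutrophils, with 520, 766 and 775 CPM, were above both monocyte subsets, which lay between 224 and 398 CPM.

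Ctsc and Cst3 did not share that order. Ctsc was highest in resident-like macrophages, at 1288, 1316 and 1357 CPM, and the next levels, 683, 827 and 902 CPM in the Cd72 and Ms4a7 cluster and 658, 977 and 618 CPM in classical monocytes, overlapped each other but not the resident-like range. Foamy-like cells had 391, 671 and 513 CPM. Cst3, the inhibitor, peaked outside macrophages: Xcr1 Clec9a dendritic cells were at 22041, 20418 and 21138 CPM and mature dendritic cells at 10058, 10166 and 10954 CPM, whose range overlapped that of fibroblast-like cells (12292, 7090 and 11138 CPM). Non-classical monocytes and resident-like macrophages were at 4694 to 5531 and 4002 to 5308 CPM, foamy-like cells at 2129, 2466 and 2123 CPM, and both B subsets between 209 and 285 CPM.

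Ctsh was high in some macrophage and some dendritic subsets, with mature dendritic cells at 687, 802 and 896 CPM, Cd209a cells at 600, 727 and 678 CPM, the Cd72 and Ms4a7 cluster at 638, 683 and 685 CPM, foamy-like macrophages at 507, 728 and 645 CPM and naive follicular B cells at 228, 251 and 252 CPM. Xcr1 Clec9a dendritic cells, at 191, 240 and 258 CPM, were at the level of the naive follicular B cells. The ranges of the upper subsets overlapped, except that mature dendritic cells were above the Cd72 and Ms4a7 cluster in every library. Lgmn was at 1181, 1172 and 1348 CPM in foamy-like cells, 869, 937 and 1036 CPM in resident-like cells and 403, 346 and 306 CPM in classical monocytes. It was the member with the widest gap between the B subsets, 93.6, 85.8 and 105 CPM in naive follicular and 29.9, 24.8 and 33.5 CPM in B1 cells.

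Ctsk and Ctsl were highest in the fibroblast-like cells. Ctsk was at 412, 216 and 318 CPM there, at 63.1, 32.1 and 34.5 CPM in foamy-like macrophages and at 1.67, 0.922 and 1.04 CPM in resident-like cells, where 4, 2 and 4 UMIs were counted. Ctsl was at 1398, 1666 and 1887 CPM in fibroblast-like cells, at 751, 483 and 390 CPM in foamy-like and 208, 310 and 393 CPM in resident-like macrophages, and at 11.1, 10.9 and 18.7 CPM in naive follicular B cells. The 9 fibroblast markers summed to 6.31, 30.3 and 34.7 CPM in foamy-like and to 135, 112 and 116 CPM in resident-like macrophages. Foamy-like cells with a Ctsk UMI held on average 0.087, 1.125 and 0.69 fibroblast-marker UMIs in control, HHcy and WD. Those without one held 0.091, 0.24 and 0.55. The part of fibroblast RNA in the macrophage levels was not tested.

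**Figure D1:**
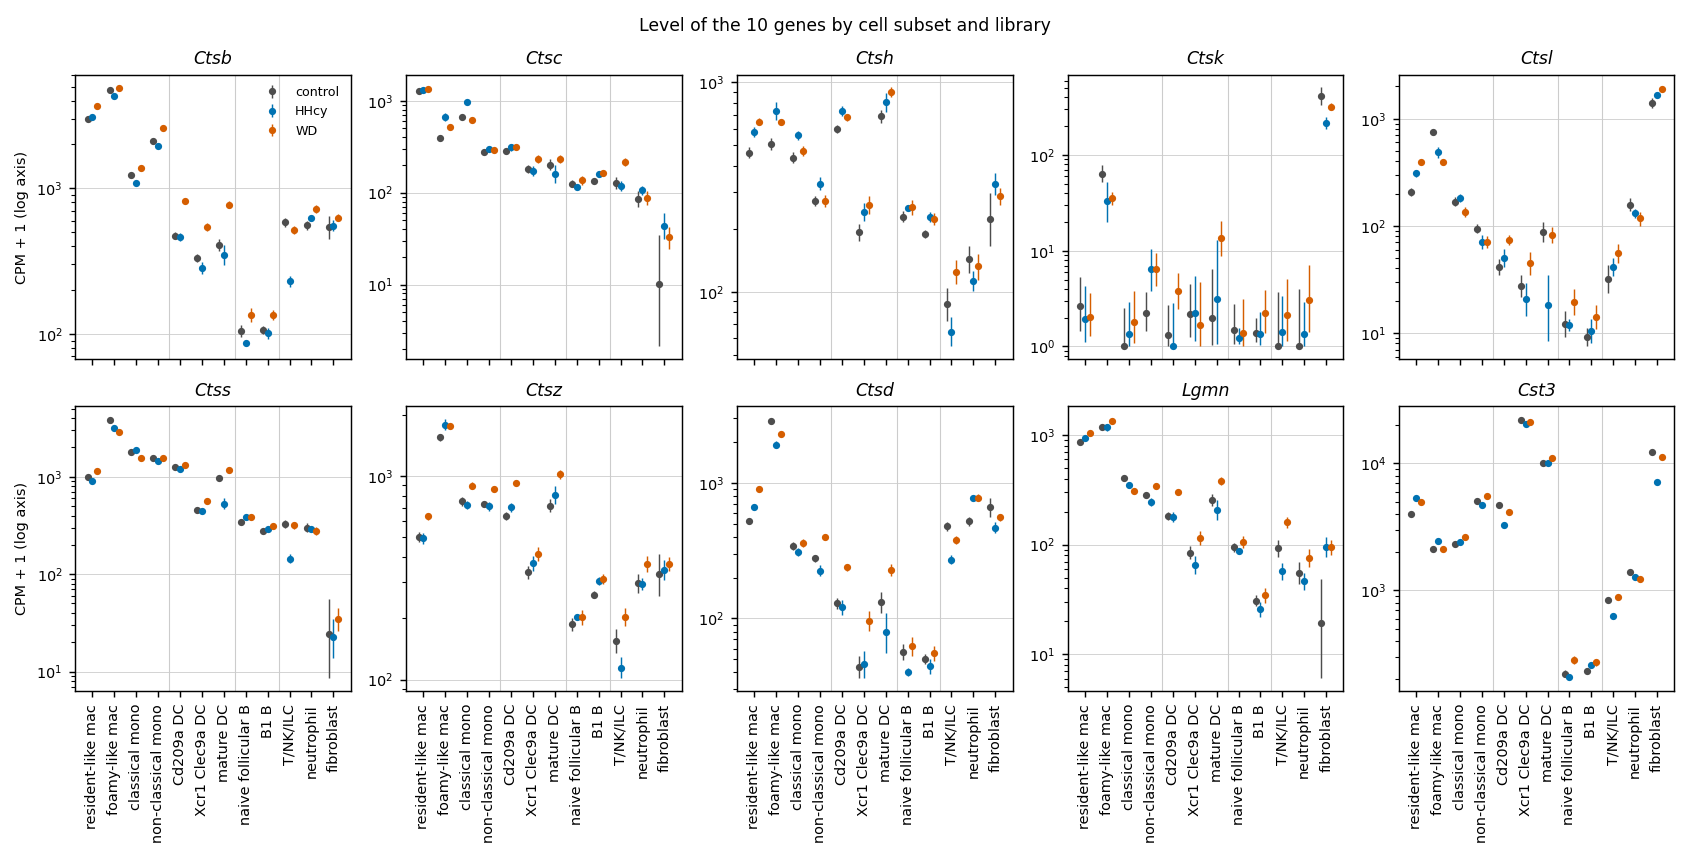
Levels of the 10 members by cell subset, as CPM + 1 on a logarithmic axis, one point per library (control, HHcy, WD) with a bar for its 95% counting interval. Ctsb, Ctsd, Ctss, Ctsz and Lgmn are at the top in foamy-like macrophages, Ctsc in resident-like macrophages, Cst3 in Xcr1 Clec9a dendritic cells, and Ctsk and Ctsl in fibroblast-like cells.

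Set class against class in each library, 9 of 9 members with enough UMIs were higher in macrophages and monocytes than in B cells in all 3 libraries, where 27.4% of all genes tested were. Ctsb was at 2441, 2102 and 2869 CPM in macrophages and monocytes and at 113, 95.3 and 145 CPM in B cells, 21.6-, 22.1- and 19.8-fold. The order by log2 ratio ran from Ctsl (4.64, 4.36 and 4.15) and Ctsb (4.43, 4.46 and 4.31) down to Ctsz (1.73, 1.68 and 1.80) and Ctsh (1.06, 1.03 and 1.17). Of the other lists, 26 of 31 lysosomal hydrolases and cofactors, 12 of 16 lysosomal membrane genes and 13 of 16 vacuolar ATPase genes, the pump that acidifies the lysosome, were higher in macrophages in all 3. In dendritic cells 9 of 9 members were likewise higher than in B cells, where 22.6% of all genes were, with Cst3 furthest apart (log2 5.66, 5.48 and 5.00). When cells with 5 or more UMIs of the macrophage genes C1qa, C1qb and C1qc were left out of both classes, 6 of 9 were higher in all 3 libraries, against 20.7% of all genes higher and 16.9% lower. The other 3 were under 1.5-fold in at least 1 library: Ctsd (0.21, 0.43 and 1.26), Ctsc (0.57, 0.51 and 0.31) and Lgmn (0.95, 0.24 and 1.49).

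Free RNA in the droplets can give B cells some macrophage transcripts. The complement genes C1qa, C1qb and C1qc, which B cells do not make, stood in B cells at 1.77%, 1.65% and 2.26% of their macrophage level. The B cell levels of the 9 members with enough UMIs were above that share in every library: 44.3% to 49.1% of the macrophage level for Ctsh, 28.7% to 31.3% for Ctsz, 16.2% to 22.2% for Ctss, 4.5% to 5.1% for Ctsb and 4.0% to 5.6% for Ctsl. Ctsk had 6, 11 and 6 UMIs in B cells, too few to set beside it.

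Foamy-like macrophages were set against resident-like macrophages. Both subsets were named from RNA markers only, and neither lipid content nor position in the vessel was measured. Cells with 5 or more C1qa, C1qb and C1qc UMIs were 47 of 111, 23 of 42 and 149 of 257 foamy-like cells in control, HHcy and WD. Among resident-like cells they were 440 of 448, 336 of 345 and 523 of 537. The part of this difference in the contrast was not tested. The subsets held 111, 42 and 257 foamy-like cells, with a median of 13923, 13573 and 15404 UMIs, and 448, 345 and 537 resident-like cells, with 4728, 6079 and 6419. Ctsd, Ctss and Ctsz were higher in foamy-like cells in all 3 libraries and Ctsc and Cst3 lower, 3 and 2 of 9 members against 12.3% and 19.3% of 6001 genes tested. The log2 ratios in control, HHcy and WD were 2.45, 1.54 and 1.34 for Ctsd, 1.92, 1.82 and 1.34 for Ctss, 1.62, 1.85 and 1.48 for Ctsz, -1.72, -0.97 and -1.40 for Ctsc and -0.91, -1.11 and -1.23 for Cst3. Ctsb (0.67, 0.48 and 0.41) and Lgmn (0.44, 0.32 and 0.38) leaned to the foamy-like side below 1.5-fold in at least 2 libraries, and Ctsh (0.14, 0.33 and -0.01) was near even. The members' median was 0.67, 0.48 and 0.38. With every cell thinned to 1000 UMIs, 20 of the 20 called values of single libraries stayed past 1.5-fold on the same side.

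The contrast for Ctsl differed between the libraries. Its log2 ratio of foamy-like to resident-like was 1.86 in control, 0.64 in HHcy and -0.01 in WD. The foamy-like level was lower and the resident-like level higher in HHcy and WD than in control. Single cells carry part of the foamy-like level: in control 189 and 134 of 1190 Ctsl UMIs came from 2 cells, and without the top cell the levels were 646, 376 and 341 CPM. The median foamy-like cell had 2.27, 2.27 and 1.97 Ctsl UMIs per 10000, and the median resident-like cell 0.82, 2.12 and 2.72.

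Ctsk in foamy-like macrophages rested on few cells. It had 100, 18 and 150 UMIs, in 23 of 111, 8 of 42 and 70 of 257 cells, and the top cell held 27, 6 and 7 of them. Without that cell the levels were 46.4, 22 and 33.0 CPM, still above the resident-like levels of about 1 CPM. In the Cd72 and Ms4a7 cluster of the control library 78 of 104 Ctsk UMIs came from 1 cell, and without it the level fell from 32.3 to 8.14 CPM.

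Other lysosomal genes went both ways between these subsets. Of all genes tested, 12.3% were higher in foamy-like cells in all 3 libraries and 19.3% lower, and the hydrolase counts below are not far from these shares. Of 16 vacuolar ATPase genes 9 were higher in foamy-like cells in all 3 libraries and 0 lower, with Atp6v0d2, a subunit of macrophages and osteoclasts, at log2 3.79, 3.66 and 2.84, Atp6v1c1 at 1.85, 1.71 and 2.05 and Atp6v0c at 1.43, 1.35 and 1.44. Of 31 hydrolases and cofactors 6 were higher, among them Acp5, tartrate-resistant acid phosphatase (4.75, 4.66 and 4.74), the sphingolipid cofactor genes Gm2a (1.85, 2.15 and 2.16) and Psap (1.87, 1.98 and 1.89), and 5 were lower, among them Arsb (-1.63, -3.77 and -1.93) and Smpd1, acid sphingomyelinase (-1.47, -1.56 and -1.90). Among 16 membrane genes 5 were higher, with Clcn7 (1.18, 0.98 and 0.84) and Cd68 (1.07, 0.88 and 0.70), and 2 lower, with Lamp2 (-0.79, -1.09 and -0.84). Of 2 listed inhibitors tested, 1 was higher, Cstb, and 1 lower, Serpinb6a. Cstb, which encodes the intracellular cathepsin inhibitor cystatin B (2.63, 2.16 and 2.65), was opposite to the secreted inhibitor Cst3. Ctsf, another cathepsin, was lower (-6.03, -2.79 and -3.56), and 0 of 8 MHC class II genes moved in all 3 libraries.

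**Figure D2:**
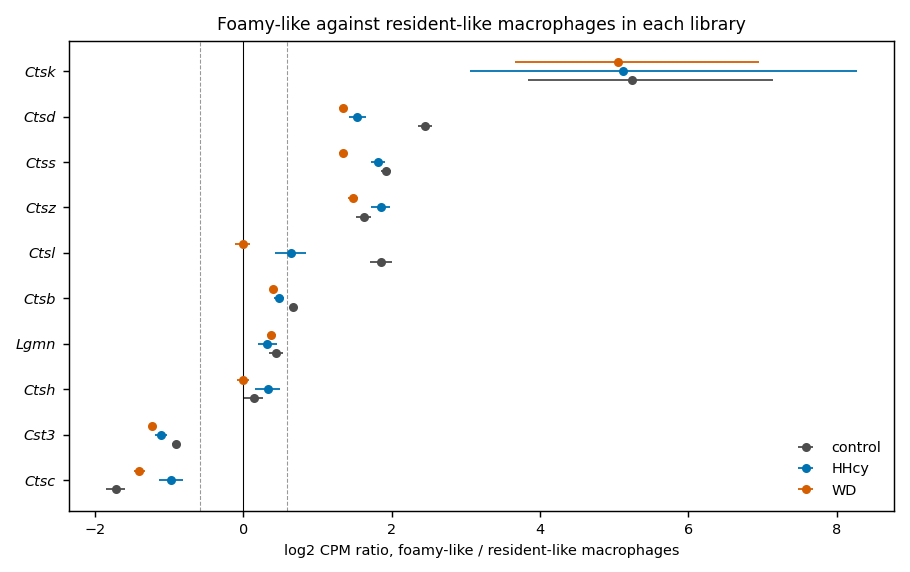
Log2 CPM ratio of foamy-like to resident-like macrophages for each member (horizontal axis), one point per library with its 95% counting interval, with dashed lines at 1.5-fold either way. Ctsd, Ctss, Ctsz and Ctsk lie to the right and Ctsc and Cst3 to the left in all 3 libraries, Ctsk with wide intervals, and Ctsl spreads from 1.86 in control to -0.01 in WD.

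**Figure D3:**
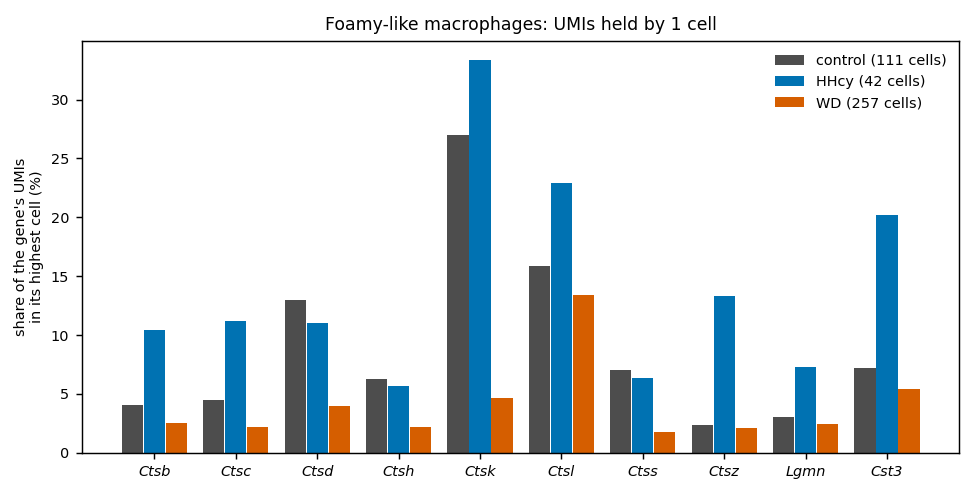
Share (percent) of each member's UMIs in foamy-like macrophages that came from the single cell with most of them, one bar per library (111 control, 42 HHcy and 257 WD cells). Ctsk has the tallest bars in control and HHcy, where 27 of 100 and 6 of 18 UMIs came from 1 cell, and Ctsl the tallest in WD.

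Classical monocytes, the precursors recruited from blood, and non-classical monocytes, which patrol vessel walls, differed in 5 of 9 members. Ctsc (log2 1.24, 1.70 and 1.09), Ctsl (0.85, 1.39 and 0.93) and Ctsh (0.69, 0.76 and 0.80) were higher in classical cells in all 3 libraries, and Cst3 (-1.14, -0.96 and -1.08) and Ctsb (-0.78, -0.86 and -0.93) were lower. That is 3 and 2 of 9, against 6.4% and 6.57% of all genes. Ctsd, Ctss, Ctsz and Lgmn were not past 1.5-fold in all 3. The same 3 and 2 members were called when cells with 5 or more C1qa, C1qb and C1qc UMIs were left out (6.24% and 7.07% of all genes), with Ctsc at 1.02, 1.67 and 1.10. Resident-like macrophages exceeded classical monocytes in Ctsb (1.27, 1.5 and 1.42), Lgmn (1.11, 1.44 and 1.76), Cst3 (0.79, 1.14 and 0.93) and Ctsd (0.61, 1.10 and 1.33), against 18.5% of all genes higher, while Ctss was on the monocyte side (-0.85, -1.05 and -0.43).

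Dendritic subsets were separated by Cst3 in one direction and by most proteases in the other. Cst3 was 4.71-, 6.24- and 5.09-fold higher in Xcr1 Clec9a cells, which cross-present antigen to CD8 T cells, than in Cd209a cells. In the same comparison 6 of 9 members were lower in all 3 libraries and 1 higher, against 8.91% and 5.16% of all genes: Ctsh (log2 -1.65, -1.60 and -1.39), Ctsd (-1.58, -1.40 and -1.32), Ctss (-1.5, -1.42 and -1.22), Lgmn (-1.13, -1.47 and -1.41), Ctsz (-0.93, -0.92 and -1.17) and Ctsl (-0.61, -1.31 and -0.74). Ctsb (-0.51, -0.72 and -0.59) and Ctsc (-0.64, -0.85 and -0.45) lay on the same side. Mature cells, which have taken up antigen and carry Ccr7, differed from Cd209a cells past 1.5-fold in all 3 libraries only in Cst3 (1.10, 1.63 and 1.40), against 9.08% of all genes higher and 17% lower.

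Part of the dendritic class carried macrophage transcripts. C1qa, C1qb and C1qc stood in dendritic cells at 14.6%, 8.76% and 17.3% of their macrophage level, and 15.0%, 13.4% and 32.8% of dendritic cells held 5 or more of these UMIs. Leaving those cells out left 419, 259 and 309 dendritic cells and a C1q level of 1.22%, 0.98% and 1.13%, and the 16 macrophage markers then summed to 1646, 1998 and 2164 CPM in place of 3094, 3012 and 4859 CPM. None of the 16 was at 0 over the class. Among the cells left, Xcr1 Clec9a cells were lower than Cd209a cells in 7 of 9 members (10% of all genes), with Ctsb now among them (-0.69, -1.15 and -1.20), Ctsd at -1.99, -2.46 and -2.44 and Lgmn at -1.92, -2.28 and -2.75, and 1 was higher (5.36% of all genes). Among the same cells mature cells were past 1.5-fold from Cd209a cells in Cst3, higher, and also in Ctsc, lower (93.2, 118 and 112 CPM against 242, 255 and 226 CPM, log2 -1.38, -1.11 and -1.01), against 9.67% of all genes higher and 20.2% lower.

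In B cells Lgmn alone of 9 members passed 1.5-fold between the subsets in all 3 libraries. It was higher in naive follicular than in B1 cells by log2 1.65, 1.79 and 1.65, against 9.41% of all genes higher and 7.05% lower. Ctsz was on the B1 side below that size in at least 1 library (-0.48, -0.59 and -0.62). Of 10 MHC class II genes 6 were higher in naive follicular cells.

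Western diet was set against control in each class. In dendritic cells 5 of 9 members were higher in WD and 0 lower, against 5.21% and 4.61% of all genes. Ctsd was at 93.4 CPM in control and 194 CPM in WD, a log2 ratio of 1.06 (0.93 to 1.18). Ctsb went from 400 to 709 CPM (0.83, 0.76 to 0.89), Lgmn from 147 to 260 CPM (0.83, 0.72 to 0.93), Ctsl from 39.4 to 64.9 CPM (0.72, 0.52 to 0.93) and Ctsz from 520 to 801 CPM (0.62, 0.57 to 0.68). The WD level was the higher one for 8 of these 9 members, the exception being Cst3 at -0.38, and the members' median was 0.62 beside 0.01 over all genes. Ctsk had 5 and 35 UMIs in the class, too few to compare. With the mix of dendritic subsets held fixed 3 of the 5 stayed called, Ctsd (0.90), Ctsb (0.77) and Lgmn (0.65), while Ctsl (0.56) and Ctsz (0.49) did not, and the same 3 were called with each cell thinned to 1000 UMIs, where Ctsl was at 0.095. Xcr1 Clec9a cells, low in Ctsd, Ctsl, Ctsz and Lgmn, were 150 of 493 dendritic cells in control and 78 of 460 in WD.

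The share of dendritic cells with C1q UMIs was also higher in WD, as given above, and the same members were past 1.5-fold without those cells: Ctsd (1.35), Ctsl (1.21), Lgmn (0.87), Ctsz (0.72) and Ctsb (0.69), 5 of 9 against 5.11% of all genes. The 16 macrophage markers still summed to 1646 CPM in control and 2164 CPM in WD among these cells, and their part in the result was not tested further. By subset and with all cells, Cd209a cells had Ctsd (0.89), Ctsl (0.85), Ctsb (0.79) and Lgmn (0.73) higher, against 6.85% of all genes (4.26% lower), Xcr1 Clec9a cells had Ctsd (1.15), Ctsl (0.72) and Ctsb (0.71) higher, against 5.2% (6.13% lower), and mature cells had Ctsb (0.93) and Ctsd (0.81) higher, against 9.58% (6.61% lower). Without the cells of 5 or more C1q UMIs, the 5 members were called in Cd209a cells (Ctsd 1.13, Ctsl 0.75, Lgmn 0.72, Ctsz 0.70 and Ctsb 0.69, where 6.69% of all genes were higher). In Xcr1 Clec9a cells Ctsd alone was called (0.68, 0.00 to 1.34, from 49 UMIs in control and 34 in WD; 4.44% of all genes), a value that with all Xcr1 Clec9a cells thinned to 1000 UMIs was -0.38 from 5 and 2 UMIs, and Ctsb was at 0.19 and Lgmn at -0.12. Mature cells had Ctsl at 2.80 from 6 UMIs in control and 58 in WD, Ctsd at 2.12, Ctsb at 0.95 and Ctss at 0.70 (9.96% of all genes). In these mature cells the 16 macrophage markers summed to 568 CPM in control and 1275 CPM in WD and the 9 fibroblast markers to 6.21 and 24.99 CPM, and their part in the values was not tested. The Ctsl value of 1.21 for the class includes these few mature-cell UMIs among 109 in control and 207 in WD.

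Other lysosomal genes were compared in all WD and control dendritic cells, where 5.21% of all genes were higher and 4.61% lower. These include the cells with 5 or more C1q UMIs, 15.0% of the class in control and 32.8% in WD. The 16 macrophage markers summed to 3094 CPM over the class in control and 4859 CPM in WD. Their part in the values of this paragraph was not tested. Among all dendritic cells 3 of 31 hydrolases and cofactors were higher and 1 lower, with Acp5 at 1.06, Pla2g15 at 0.93 and Acp2 at 0.67. Of 16 membrane genes 3 were higher, Cd63 (0.86), Slc29a3 (0.66) and Slc11a1 (0.65), and of 15 vacuolar ATPase genes 1, Atp6v0c (0.81). Cstb went from 196 to 354 CPM (0.85) and Cst7, cystatin F, by 0.81, which were 2 of 4 inhibitors. Mitf, which encodes one of the MiT/TFE factors, was at 0.66, and 0 of 10 MHC class II genes were higher.

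**Figure D4:**
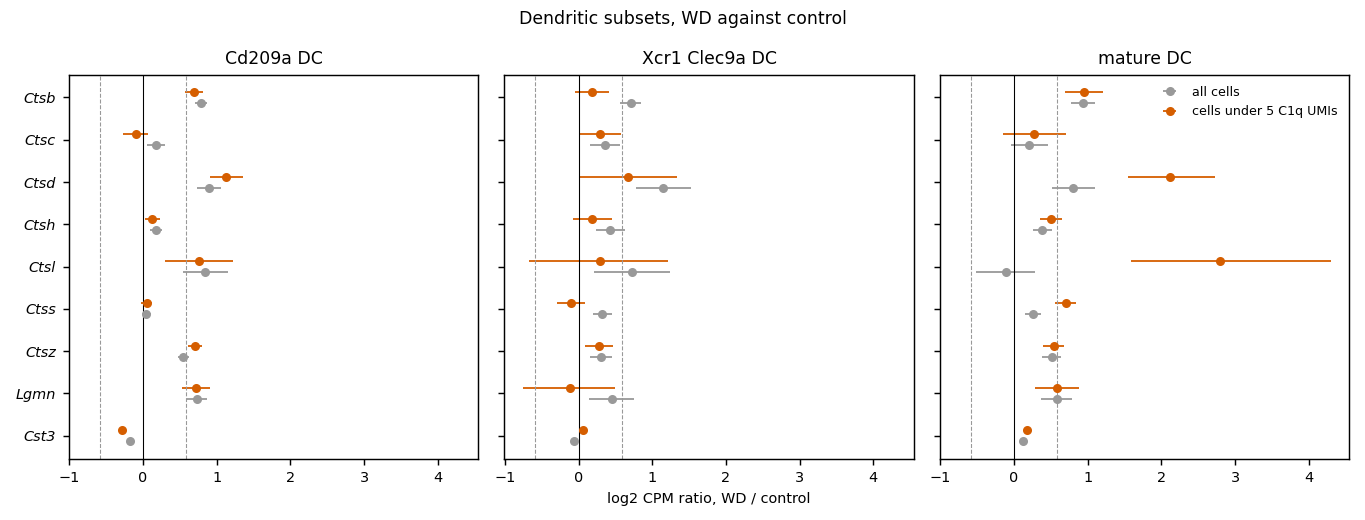
Log2 CPM ratio of WD to control for each member but Ctsk in the 3 dendritic subsets, for all cells (grey) and for cells under 5 C1q UMIs (orange), with 95% counting intervals and dashed lines at 1.5-fold. In Cd209a cells both sets of points lie close together, in Xcr1 Clec9a cells Ctsb goes from 0.71 to 0.19, and in mature cells Ctsd and Ctsl go to 2.12 and 2.80.

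In macrophages and monocytes as a class 0 of 10 members were called in WD, against 3.54% of all genes higher and 3.99% lower. The values were nearly all on one side: 8 of 10 were above 0, with Lgmn at 0.43, Ctsh at 0.42, Ctsc at 0.37 and Ctsz at 0.30, a median of 0.24 beside -0.03 over all genes, and Ctsk was at -0.54 (218 UMIs in control, 250 in WD). The subsets differed. Resident-like macrophages had 2 of 9 members higher, Ctsl (208 and 393 CPM, log2 0.92, 0.77 to 1.07) and Ctsd (521 and 896 CPM, 0.78, 0.69 to 0.88), against 4.19% of all genes, and 9 of 9 above 0. Foamy-like macrophages had 2 of 10 lower, Ctsl (751 and 390 CPM, -0.94, -1.05 to -0.84) and Ctsk (63.1 and 34.5 CPM, -0.87, -1.25 to -0.49), against 7.15% of all genes lower (4.63% higher). Without the cell that held most Ctsk UMIs in each library, 27 of 100 in control, Ctsk was at -0.49, under 1.5-fold, and with cells named by their own markers it was at 0.61. For Ctsl the value without the top cells was -0.92, and with cells thinned to 1000 UMIs it was -0.55, also under 1.5-fold. In resident-like cells 3.98% of all genes were lower. The Cd72 and Ms4a7 cluster had Ctsk lower (32.3 and 5.32 CPM, -2.60), against 4.15% of all genes lower and 4.87% higher, with the control level resting on 1 cell as above. Ctsl therefore stood on opposite sides in the foamy-like and resident-like macrophages of the same 2 libraries, a difference that 1 library per group cannot test. No member passed 1.5-fold in classical monocytes (4.04% of all genes higher and 7.93% lower) or in non-classical monocytes (3.76% and 3.34%), although Ctsd in the latter was at 0.53 and passed it, at 0.60, without cells of 5 or more C1q UMIs (3.96% of all genes higher). In neutrophils Ctsd was at 0.58, below 1.5-fold, where 5.17% of all genes were higher and 9.73% lower, and at 0.63, past it, without cells of 5 or more C1q UMIs (5.11% of all genes higher).

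B cells had 1 of 9 members higher in WD, Ctsl, at 0.69 (0.37 to 1.02) from 176 UMIs in control and 148 in WD, against 3.44% of all genes higher and 1.99% lower, and the 9 of 9 above 0 had a median of 0.30 beside 0.03. Naive follicular cells (0.75, 0.13 to 1.37) and B1 cells (0.70, 0.18 to 1.21) each showed the Ctsl difference, where 2.87% and 2.13% of all genes were higher and 2.56% and 3.52% lower. The 16 macrophage markers summed to 319 CPM in control and 519 CPM in WD B cells, and the 9 fibroblast markers to 8.63 and 34.5 CPM. Their part in the Ctsl value was not tested. With cells thinned to 1000 UMIs the Ctsl ratio was 0.29, under 1.5-fold. T, NK and innate lymphoid cells had Ctsl (0.81), Lgmn (0.80) and Ctsc (0.77) higher in WD, against 6.64% of all genes higher and 5.11% lower. C1q stood there at 18.6% of the macrophage level in control and 21.0% in WD, and the 16 macrophage markers summed to 2558 and 4638 CPM. Without cells of 5 or more C1q UMIs none of the 3 was called: Ctsc was at -0.10, Lgmn at 0.17 and Ctsl had 18 UMIs in control and 31 in WD, too few to compare, while Cst3 was lower (-1.20; 4.86% of all genes lower).

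Homocysteine was set against control in the same way, for the library labelled HHcy. In macrophages and monocytes 1 of 10 members was called, Ctsk, lower by log2 -1.98 (-2.52 to -1.47) with 37 UMIs against 218 in control, where 4.06% of all genes were lower and 2.94% higher. The control count held the cell with 78 Ctsk UMIs noted above, and without the 191 cells of 10 or more Apoe UMIs the ratio was -1.86. Ctsc was at 0.42, Ctsh at 0.31 and Ctsd at -0.41, and the median was -0.08. Dendritic cells had 0 of 9 members called (5.97% of all genes higher and 3.48% lower), with a median of -0.17, and B cells 0 of 9 (4.45% and 7.2%), with a median of 0.03 and Lgmn at 0.43.

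By subset, the granule-protease activator Ctsc was higher in foamy-like macrophages of the library labelled HHcy (391 CPM in control and 671 CPM, log2 0.78, 0.59 to 0.97), 1 of 10 against 7.27% of all genes higher. There Ctsl (751 and 483 CPM, -0.64) and Ctsk (-0.97, from 100 UMIs in control and 18) were lower, 2 of 10 against 10.2%. Without the 2 of these cells that had 10 or more Apoe UMIs, Ctsc was at 0.79, Ctsk at -0.88 and Ctsl at -0.55, which is under 1.5-fold. All 3 values depended on the processing. With cells thinned to 1000 UMIs Ctsc was at 0.15, Ctsl at 0.77 and Ctsk at 0.46, with cells named by their own markers Ctsc and Ctsk were both at 0.086, and with doublets kept Ctsk was at 0.66. The median foamy-like cell had 2.27 Ctsl UMIs per 10000 in both libraries. The foamy-like cells numbered 42 in that library, and 7 of 7 MHC class II genes were also higher in them, with Ciita at 1.42. In classical monocytes Ctsc was at 0.57 (0.48 to 0.66), just inside 1.5-fold (4.41% of all genes higher and 6.63% lower), and at 0.74 without cells of 5 or more C1q UMIs (5.56% of all genes higher). Resident-like macrophages had 0 of 9 called (3.83% higher and 5.15% lower), with Ctsl at 0.58 (0.41 to 0.75). The Cd72 and Ms4a7 cluster had Ctsd at -0.86 and 1 Ctsk UMI against 104 (6.19% of all genes lower and 3.75% higher). No member was called in non-classical monocytes (3.43% of all genes higher and 4.11% lower), neutrophils (5.02% and 20.6%), Cd209a (6.84% and 4.93%) or Xcr1 Clec9a dendritic cells (5.31% and 4.85%), or in naive follicular (3.92% and 5.22%) or B1 cells (2.17% and 3.39%).

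A pair of results in small groups of cells changed when cells with C1q UMIs were left out. In mature dendritic cells Ctss (-0.89), Ctsd (-0.75) and Ctsl (-2.34, 8 against 89 UMIs) were lower in HHcy, where 8.5% of all genes were lower and 8.02% higher. In the control library 71 of 133 Ctsd UMIs and 38 of 89 Ctsl UMIs came from 1 cell, and without the cell holding most UMIs of the gene the control levels were 63.7 CPM for Ctsd and 52.4 CPM for Ctsl. Among cells under 5 C1q UMIs the ratios were 0.93 for Ctsd (30 and 30 UMIs), 1.15 for Ctsl (6 and 7 UMIs) and -0.51 for Ctss. In T, NK and innate lymphoid cells Ctsb (-1.35), Ctss (-1.20), Ctsd (-0.82) and Lgmn (-0.71) were lower in HHcy (8.09% of all genes lower and 4.41% higher), where the C1q level was 18.6% of that of macrophages in control and 8.78% in HHcy. Without cells of 5 or more C1q UMIs these ratios were -0.27, 0.31, -0.33 and 0.19, and Ctsl, at 18 UMIs in control and 64 in HHcy, was called higher (0.96; 4.8% of all genes higher).

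**Figure D5:**
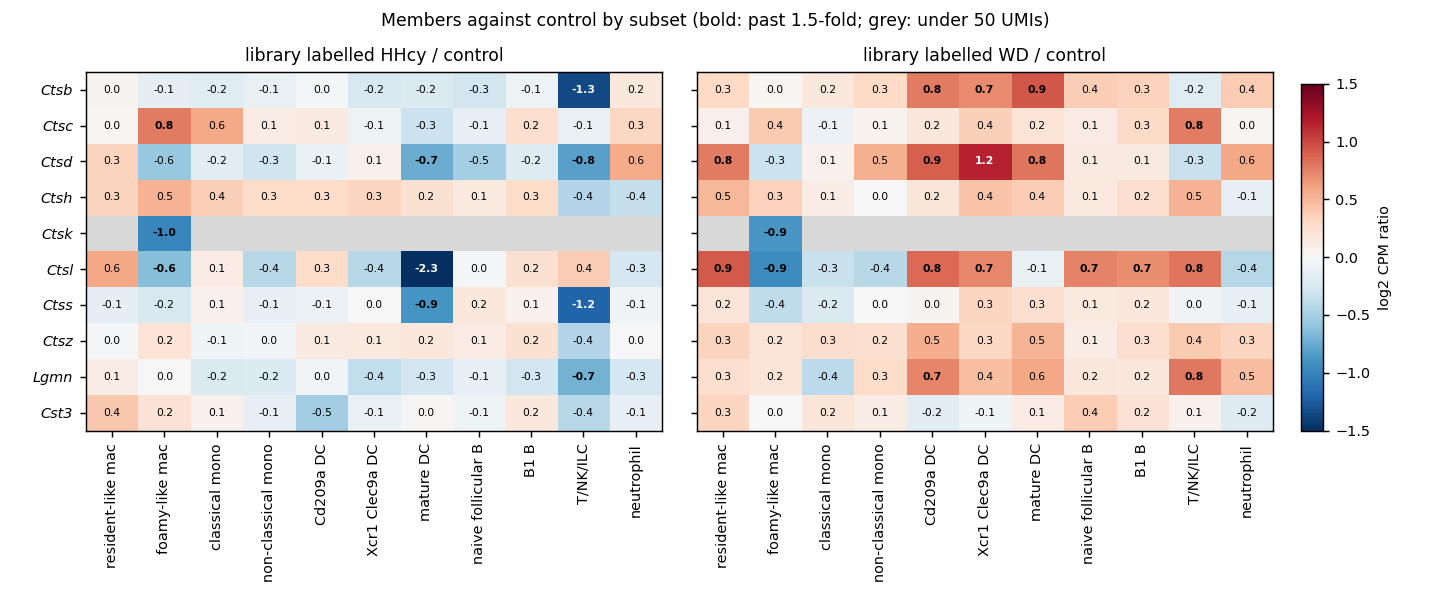
Log2 CPM ratio to control of each member (rows) by subset (columns) for the libraries labelled HHcy and WD, coloured from lower (blue) to higher (red), with values past 1.5-fold in bold and grey cells where under 50 UMIs were counted. In WD, bold red values lie in the dendritic subsets, T, NK and innate lymphoid cells, resident-like macrophages and both B subsets. Ctsl is red in resident-like (0.92) and blue in foamy-like macrophages (-0.94).

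The genes most like each member across subsets were found among 7178 genes by the mean over libraries of Pearson's r of log2(CPM + 10) over 9 named subsets. The points share libraries and depth, so the values are descriptions. Ctsd was closest to Atp6v1a, a vacuolar ATPase subunit (0.972), and Tmem86a (0.966), and Lgmn to Atp6v1a (0.970) and Renbp (0.952). Ctss was closest to Tcirg1, another subunit of the pump (0.967), and Slc15a3 (0.960), and Ctsz to Txnrd1 (0.955) and Atp6v1f (0.946). Ctsl was closest to Trem2, a lipid receptor of macrophages (0.985), and Cndp2 (0.976), Ctsb to Itgb5 (0.986) and Blvra (0.980), and Ctsk to Pdpn (0.962) and Syngr1 (0.931). Ctsc was closest to Adam15 and Daglb (both 0.964), Ctsh to Pcyt1a (0.932) and Tmem176a (0.915), and Cst3 to Sh3bp1 (0.925) and Parp8 (0.923). Between members the highest value was that of Ctsd and Ctsl (0.965) and the lowest that of Ctsk and Cst3 (0.0828).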

How the data were processed

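UMI counts per gene and cell barcode were deposited by the authors as 10x Chromium 3' v3 matrices, 1 per library. The submitters' processing notes name Cell Ranger 2.2.0 and mm10, and per the file headers the matrices were written by cellranger 4.0.0, so the version is uncertain. Barcodes with at least 200 genes and at most 10% mitochondrial UMIs were kept. Cells with markers of 2 or more lineages (6 B, 6 T, 7 macrophage, 7 neutrophil or 6 fibroblast markers, and 11 macrophage markers for a pair with neutrophil) were left out as doublets, 10.7%, 21.1% and 20.4% of control, HHcy and WD. Cells were clustered with scanpy 1.11.5 and leidenalg 0.10.2 (2000 variable genes without the members and lysosomal and MHC class II lists, 30 components, 20 neighbours, resolution 1), and clusters were named from marker lists. UMIs were summed per class or subset and library. With 1 library per group there is no test: ratios carry exact conditional binomial intervals, levels exact Poisson intervals and shares Clopper-Pearson intervals, all of counting error only. Gene positions are those of the reference annotation and promoter windows those of RefSeq, both GRCm38, searched for motifs on both strands. On counts simulated with counting error only, 98% to 100% of well-counted genes changed 2-fold were called and 1.16% to 2.10% of unchanged ones. The simulation held no difference between animals, libraries or single cells. Its shares are therefore not error rates of the calls between the real libraries. Members were given in full. Of each list up to 3 genes with the largest ratio past 1.5-fold were named (of a count across 3 libraries, called in all 3), and for each member the 2 most alike genes. Members and lists were chosen with earlier results of these data known. Leaving out cells with 5 or more C1q UMIs, with 10 or more Apoe UMIs or with most UMIs of a gene was chosen after seeing the data. Alternatives were looser mitochondrial limits, finer clusters, doublets kept, members among the variable genes, thinning to 1000 UMIs, another scaling, a fixed subset mix and naming each cell by its own markers.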

Additional observations from a re-analysis of the deposited data

Results flagged for a closer look

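Ctsl in WD against control stood on opposite sides in different cells. The log2 ratio was 0.92 in resident-like macrophages, 0.85 in Cd209a and 0.72 in Xcr1 Clec9a dendritic cells, 0.75 in naive follicular and 0.70 in B1 cells and 0.81 in T, NK and innate lymphoid cells, and -0.94 in foamy-like macrophages. The difference between these cells was not tested, since there is 1 library per group. As given above, single cells held part of the foamy-like Ctsl, and its ratio was under 1.5-fold after thinning. The 16 macrophage markers summed to 2558 CPM in control and 4638 CPM in WD in T, NK and innate lymphoid cells. In B cells they summed to 319 and 519 CPM, and their part in these values was not tested. Among cells under 5 C1q UMIs, Ctsl had under 50 UMIs over both libraries in Xcr1 Clec9a cells and in T, NK and innate lymphoid cells, too few to compare.

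A pair of values came from cells outside the comparisons. Ctsh was higher in WD than in control in endothelial-like cells by 1.22 (36 and 12 cells), and Ctsz was higher in HHcy than in control in plasmacytoid dendritic cells by 1.59 (36 and 3 cells).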

How the results depend on the processing

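No paired analysis was possible because each group has 1 library and no result comes from a test. Of called values of classes against control, 58 of 63 stayed past 1.5-fold over the alternatives, 5 fell under it and 0 reversed. For subsets it was 126 of 157, with 23 under and 8 reversed, and 62 uncalled values passed 1.5-fold. The subset calls were least stable after thinning, where 8 of 19 stayed, 8 fell under and 3 reversed, and with cells named by their own markers, where 11 of 20 stayed, 7 fell under and 2 reversed. These totals count the same values once per alternative. For foamy-like against resident-like macrophages it was 156 of 160 and for macrophages and monocytes against B cells 231 of 231.

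In WD dendritic cells 3 members in place of 5 were higher after thinning and 3 with the subset mix held fixed. The median of 0.62 was 0.71 with finer clusters, 0.51 thinned, 0.49 with a fixed mix and 0.69 under 5 C1q UMIs. In HHcy dendritic cells 1 member in place of 0 was lower with finer clusters and 2 with cells named by their own markers. The median of -0.17 was -0.028 at 20% mitochondrial UMIs, 0.17 with doublets kept, -0.076 with own markers and -0.074 under 5 C1q UMIs. In macrophages and monocytes the count lower in HHcy was 2 with doublets kept and 0 thinned in place of 1. Ctsk, the member called, had under 50 UMIs after thinning and was not counted there, while its ratio stayed past 1.5-fold lower. The median of -0.08 was -0.20 with doublets kept, -0.02 thinned and -0.021 with a fixed mix. The WD count lower was 1 in place of 0 with doublets kept and with a fixed mix, and the WD median of 0.24 was 0.12 with doublets kept, 0.30 thinned, 0.11 with a fixed mix, 0.27 by median-of-ratios scaling and 0.19 with own markers. In B cells the HHcy median of 0.03 was 0.13 with doublets kept. The WD count of 1 was 2 with doublets kept and 0 thinned, and the median of 0.30 was 0.41 with doublets kept. With own markers 5 members were higher and 1 lower in foamy-like cells in place of 3 and 2, from 13, 6 and 26 foamy-like cells. The cause of these changes was not tested.

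Foamy-like Ctsk in HHcy reversed to 0.66 with doublets kept, 0.46 thinned (8 UMIs in control and 4 in HHcy) and 0.086 with own markers (6 and 4), and Ctsl to 0.77 thinned. Foamy-like Ctsk in WD reversed to 0.61 with own markers, and Ctsd in Xcr1 Clec9a cells in WD to -0.38 thinned (5 UMIs in control and 2 in WD). In HHcy mature dendritic cells Ctsd reversed to 0.93 and Ctsl to 1.15 under 5 C1q UMIs. Median-of-ratios scaling moved foamy-like against resident-like ratios by -0.20 in WD and 0.13 in HHcy. Non-classical monocytes could not be found at 20% mitochondrial UMIs, with finer clusters or with members among the variable genes, Cd209a cells not with finer clusters and classical monocytes not with doublets kept. Low counts limit Ctsk in all cells but fibroblast-like ones, and every member in the smaller subsets.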
